A study of Xenopus laevis with 13 samples.

Results

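Gene models that span little of the genome were examined in single eggs and gastrula embryos of the African clawed frog *Xenopus laevis*. A locus was counted as compact when its gene model carried a name, its spliced transcript was at least 500 bases long, and its mRNA, introns included, spanned under 3000 bases of the genome. This rule, which uses no expression value, found 1195 compact loci among 54110 gene models. The remaining 24644 named loci with a transcript of the same minimum length spanned more and served as the background. RNA was sequenced from 5 single eggs of 1 female primed with 700 units of human chorionic gonadotropin, collected uncleaved 60 min after fertilization (Nieuwkoop-Faber stage 1), from 5 single embryos at stage 10.5, and from 3 technical libraries of stage 10.5 embryos. No treatment or allele distinguished the groups, and whether the technical libraries share RNA was not stated. Levels are FPKM, the number of sequenced fragments scaled to transcript length and library size. Egg and embryo libraries were prepared with different kits, so stage and library preparation cannot be told apart, and the spread between eggs is a spread within 1 clutch.

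The period between these stages contains the handover from maternal to zygotic control. An egg lives on messenger RNA stored during oogenesis, and transcription of the embryo's own genome starts in earnest at the mid-blastula transition, before gastrulation. Cell cycles before that transition are very short and leave little time to transcribe long introns, and many genes that act soon after genome activation, including those that specify mesoderm, endoderm and the dorsoventral axis, have few and short introns. Such genes often lie as tandem copies in frogs, and *X. laevis*, an allotetraploid, carries homeologous copies of many of them. Housekeeping proteins, histones and small ribosomal proteins can also be encoded by compact genes.

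The compact loci had a median span of 1811 bases and a median transcript of 787 bases, against 22250.5 and 2259 bases in loci of longer span. Most had few exons: 83 had 1 exon, 621 had 2, 299 had 3, and 192 had more. A single exon was rare in the background, with 5 such loci of 24644. The name was identical in the expression table and the gene model file for 748 of the compact loci, and 432 were unnamed in the latter. The name was on 1 gene model only for 215 compact loci and on exactly 2 for 304. The median coding part was 423 bases, against 1386 bases in loci of longer span, a difference that the span limit itself favours. A compact locus may be a partial model of a longer gene, which these lengths cannot show. Its values are those of the model. An exon lay over an exon of another gene model on the opposite strand at 301 loci. The paper describes the egg and embryo libraries as strand-specific. Whether read counting used the strand was not given in the sources used here, so it is not known whether reads of such partners were kept apart.

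Depth limits what can be seen at a single compact locus. Whole reads recovered from the FPKM values came to between 1420845 and 1974491 in the egg libraries and between 1004119 and 3162423 in the single-embryo libraries, and the median tested compact locus had from 8.0 to 13.1 reads in an egg and from 9.5 to 29.1 in an embryo. Compact loci held 1.92 to 2.33% of these reads in eggs and 2.83 to 3.09% in embryos, with no overlap between the stages. The stage labels were checked against markers. All 19 tested gene models of 9 gastrula genes (*t*, *gsc*, *chrd*, *cer1* and others, several of them compact) were higher in embryos, their summed level rising from between 0.351 and 4.89 FPKM in eggs to between 1926 and 2339 FPKM in embryos. Of the 20 models of these genes, 11 were at 0 in every egg. Those of the 11 that were tested passed the filter through the embryos alone and had to be higher there. Egg markers (*btg4*, *zar1*, *npm2* and others, 15 models) summed to between 1814 and 2116 FPKM in eggs and between 1290.1 and 2231 FPKM in embryos, with 6 models higher in eggs and 2 higher in embryos. Globin markers of blood summed to at most 16.5 FPKM in eggs and 3.66 FPKM in embryos, and follicle cell markers to at most 8.37 and 16.5 FPKM. FPKM is a relative level, so in the multicellular embryo a larger share of expressing cells and more RNA per cell cannot be told apart.

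Of the 1195 compact loci, 610 reached a mean of 1 FPKM over the 10 single libraries and were tested (limma, with p-values adjusted after Benjamini and Hochberg across the 19373 models in the fit, called at an adjusted p under 0.05). More transcripts rose than fell: 232 compact loci (38.0%) were higher in embryos and 141 (23.1%) were higher in eggs. Among all gene models tested these shares were 31.6% and 25.2%, and among named loci of longer span 31.0% and 27.0%. Every embryo lay above every egg at 183 compact loci (30.0%), against 23.5% of all gene models tested and 23.6% of longer loci. Every egg lay above every embryo at 92 (15.1%), against 18.3% and 20.1%. Of the 610 tested compact loci, 131 had 3 reads or fewer in a stage, 100 in eggs and 31 in embryos. Among longer loci this held for 565 of 15134, and among all gene models for 1586 of 19373. Such loci passed the filter through the other stage and could hardly be higher in the stage at the floor. The compact shares are to be read with that limit. The median change of the compact loci was 0.24 on the log2(FPKM + 1) scale, embryos minus eggs, beside 0.07 for loci of longer span and 0.12 for all gene models. As a log2 ratio of mean FPKM without the added 1, and with loci of 3 reads or fewer in a stage set to that floor, the medians were 0.13, 0.03 and 0.05. With the technical libraries in place of the single embryos the median of the compact loci was 0.09, beside 0.07 for all gene models. It was 0.12 in the merged profiles and 0.41 with 0.1 added in place of 1. The interquartile range of the compact loci reached from -0.90 to 1.82, and that of the longer loci from -0.76 to 0.96.

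The share of loci higher in embryos was not uniform along span. It was 27.4% of 113 tested loci below 1000 bases, 36.3% of 215 between 1000 and 2000 bases, and 43.6% of 282 between 2000 and 3000 bases. Just beyond the limit it stood at 28.5% of 764 loci of 3000 to 5000 bases and at 24.9% of 2428 loci of 5000 to 10000 bases, before reaching 38.7% of 3031 loci over 50000 bases. Of the 282 loci of 2000 to 3000 bases, 57 had 3 reads or fewer in a stage. From 3000 to 5000 bases this held for 75 of the 764. The share higher in eggs was 20.4%, 22.8% and 24.5% in the compact classes, 32.5% and 32.4% from 3000 to 10000 bases, and 19.0% over 50000 bases. Within transcripts of 500 to 750 bases, 34.8% of 256 compact loci and 20.6% of 835 longer loci were higher in embryos. From 1000 to 1500 bases these shares were 47.7% of 111 and 24.6% of 2435. In that class 37 compact and 113 longer loci had 3 reads or fewer in a stage. The shares were 52.2% of 69 and 29.7% of 2325 from 1500 to 2000 bases, and 53.6% of 28 and 35.8% of 3578 from 2000 to 3000. Between 750 and 1000 bases the shares were closest, at 26.7% of 146 and 21.6% of 1081. These shares are counts of loci and carry no test of their own.

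**Figure D1:**
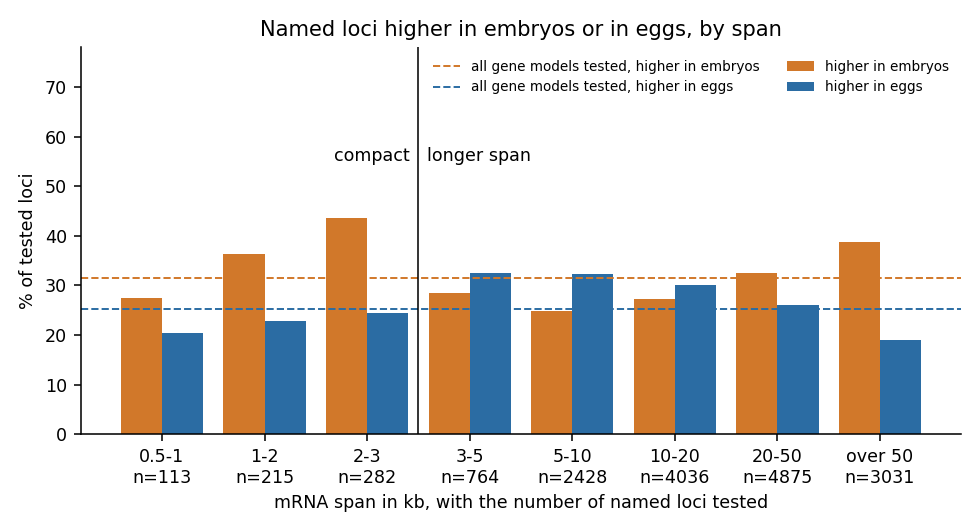
Share of tested named loci called higher in embryos (orange) or higher in eggs (blue) by mRNA span in kb, with the number tested under each class and dashed lines for all gene models tested. The 2 to 3 kb class has 43.6% higher in embryos, above the 31.6% of all gene models, and the neighbouring 3 to 5 kb class has 28.5%. In the 2 to 3 kb class 57 of 282 tested loci had 3 reads or fewer in a stage. The 51 of them on the lists of developmental regulators described below gave 45 of its 123 calls higher in embryos.

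Developmental regulators were counted apart from the other compact loci. The 4 lists of this kind (homeobox proteins, bHLH proteins with Id and Hes, forkhead, Sox, GATA, Klf and T-box factors, and secreted signals) hold 136 compact loci, of which 75 were tested, 65 were higher in embryos and 2 were higher in eggs. Of the 75, 57 had 3 reads or fewer in a stage, and most of the lists' tested loci thus entered the test through the embryos alone and had to be higher there. Their median change was 3.99 on the log2(FPKM + 1) scale, and 6.06 as a log2 ratio with loci at the floor set to it, a value set largely by that bound. Without them, 167 of 535 tested compact loci (31.2%) were higher in embryos and 139 were higher in eggs, close to the 31.6% and 25.2% of all gene models, and the median change was 0.03. Of the 282 tested compact loci of 2000 to 3000 bases, 51 were on the lists, and 45 of these were higher in embryos. Below 2000 bases 24 tested loci were on the lists, and 20 of these were higher in embryos. The same lists hold 634 loci of longer span, of which 288 were tested, 183 (63.5%) were higher in embryos, and the median change was 1.62. These lists were chosen with earlier results of the same libraries known, so their direction is a description.

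**Figure D2:**
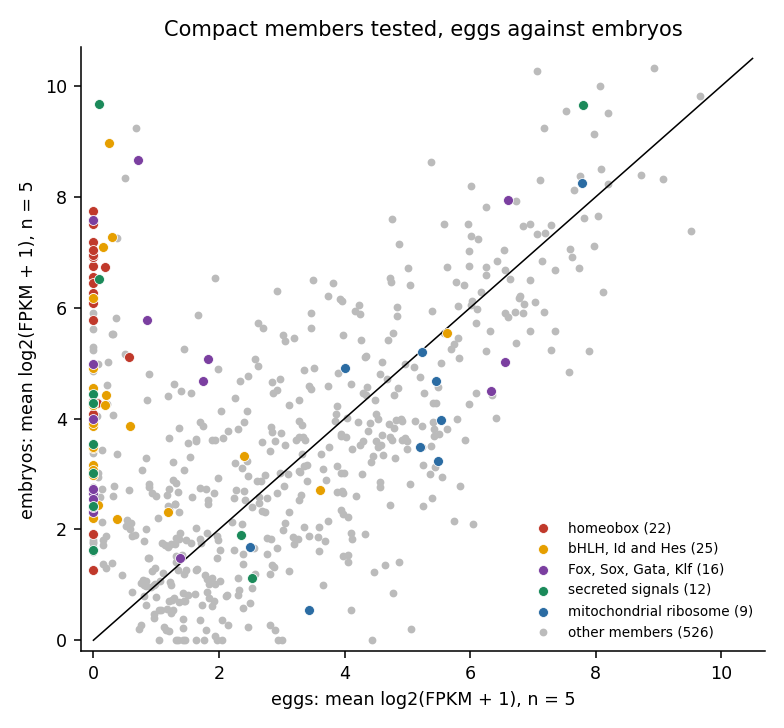
Mean log2(FPKM + 1) of the 610 tested compact loci in 5 eggs (x axis) and 5 embryos (y axis), with the line of equality and 5 gene lists in colour. Homeobox loci stand at or near 0 in eggs, while the 9 loci of the mitochondrial ribosome lie on both sides of the line.

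Among secreted signals, 10 of 12 tested compact loci were higher in embryos and none was higher in eggs, and 9 of the 12 had 3 reads or fewer in a stage. All gene models gave 31.6% and 25.2%. Of 99 tested loci of longer span in this list, 61.6% were higher in embryos. The list's name pattern also took in *pdgfra*, a receptor, and *efna3*, a membrane-bound ligand. *gdf3*, a ligand of the TGF-β family (JGIv7b scaffold 357348, bases 407560 to 409925, minus strand, 2 exons), showed the largest rise of any compact locus that met the naming rule. Its level was 0, 0, 0.362, 0 and 0 FPKM in the 5 eggs and 829.9, 681.5, 695.2, 839.7 and 1075 FPKM in the 5 embryos. A single read was recovered over the 5 eggs, which gives a ratio of 14040 with an exact Poisson 95% interval of 2520 to 554536 from that count, and the log2 change was 9.58 ± 0.17 (SE, limma adjusted p = 1.14e-11). The Nodal ligands induce mesoderm and endoderm. *nodal6* had no read in any egg and 18.3, 21.9, 15.8, 20.2 and 31.0 FPKM in the embryos, at least 130.3-fold higher against the floor of 3 reads over the 5 eggs (limma adjusted p = 1.34e-08). Of 5 tested loci named *nodal*, 4 were higher in embryos, and the other, a second *nodal1* model, went from a mean of 7.16 FPKM in eggs to 1.21 FPKM in embryos without passing the test (limma adjusted p = 0.0672). The 4 had no read in eggs, so they passed the filter through the embryos alone and had to be higher there.

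Partners and antagonists of these ligands differed in their maternal level. *tdgf1*, the EGF-CFC co-receptor of Nodal, was already present at 232.8, 253.1, 199.1, 236.7 and 194.2 FPKM in eggs and reached 794.0, 594.2, 827.3, 872.3 and 995.6 FPKM in embryos, 3.66-fold higher (log2 change 1.85 ± 0.16, SE, limma adjusted p = 2.88e-06). *szl*, the secreted Frizzled-related protein Sizzled, which restrains BMP signalling by inhibiting Tolloid proteases, was at 0 in 4 eggs and at 0.352 FPKM in the other. Its embryos were at 79.1, 64.7, 116.2, 80.7 and 129.8 FPKM (log2 change 6.44 ± 0.22, SE, limma adjusted p = 1.05e-09). *lefty*, a Nodal antagonist, had a mean of 0 FPKM in eggs and 18.7 FPKM in embryos.

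The homeobox list holds 51 compact loci, of which 22 were tested and 29 were too low. Of 70 tested homeobox loci of longer span, 68.6% were higher in embryos. Of the 22 tested compact loci, 21 were higher in embryos with every embryo above every egg. Taken separately, these held for 31.6% and 23.5% of all gene models. As many as 21 of the 22 had 3 reads or fewer in a stage, so they passed the filter through the embryos and the count follows from it. All 7 loci of the Mix and Bix family, homeodomain factors of mesoderm and endoderm, and all 6 of the Ventx family, homeodomain factors of the ventral side, were among them. Their mean levels in embryos lay between 54.0 and 216.1 FPKM for Mix and Bix and between 72.4 and 148.0 FPKM for Ventx. No read was recovered in any egg at 12 of these 13 loci. *bix2* (scaffold 27161, bases 6830008 to 6832179) stood at 225.2, 179.4, 239.5, 234.8 and 201.7 FPKM in the embryos, at least 1271-fold above the egg floor (limma adjusted p = 1.15e-11). *bix4*, on the same scaffold, stood at 181.8, 175.0, 252.7, 207.7 and 147.1 FPKM, at least 1052-fold above it. *bix1.1* followed with a mean of 183.6 ± 18.5 FPKM (SD, n = 5), *ventx2.1* with 148.0 ± 35.7 FPKM and *bix3* with 133.1 ± 28.5 FPKM. Given these SDs, the order of *bix2*, *bix4* and *bix1.1* is within the spread between embryos.

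Other homeobox loci reached lower levels, although *not* and *gsc* lay within the range of the Mix and Bix means. *not* (87.2 FPKM) and *gsc* (68.4 FPKM), regulators of the notochord and the organizer, were at 0 in eggs, and so was *otx2* (19.3 FPKM), an anterior regulator. Hox genes, which pattern the anteroposterior axis, had few reads. Of 16 compact Hox loci, 10 had 3 reads or fewer over the 5 embryos, and *hoxd1* alone was tested, with a mean of 0.0494 FPKM in eggs and 19.3 FPKM in embryos. The siamois gene *sia1* went from 0 to 2.54 FPKM and missed the threshold (limma adjusted p = 0.0558).

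**Figure D3:**
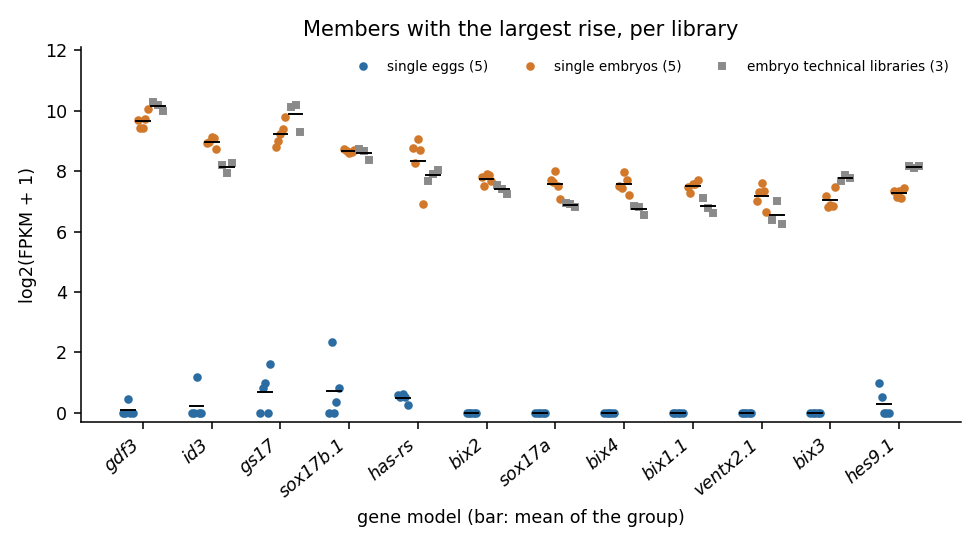
Level of the 12 compact loci with the largest rise, as log2(FPKM + 1) in each of 5 eggs (blue), 5 embryos (orange) and 3 technical embryo libraries (grey), with bars for the group means. Eggs lie at or near 0. All 3 technical libraries are far above the eggs, but they lie below every single embryo at *id3*, *sox17a*, *bix4* and *bix1.1* and above every single embryo at *bix3* and *hes9.1*.

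In the bHLH list, 21 of 25 tested compact loci were higher in embryos and none was higher in eggs, and 19 of the 25 had 3 reads or fewer in a stage. All gene models gave 31.6% and 25.2%. Of 22 tested loci of longer span in this list, 77.3% were higher in embryos. Id proteins lack a DNA-binding region and hold bHLH factors inactive. *id3* on scaffold 8834 was at 0 in 4 eggs and 1.29 FPKM in the other, and at 487.6, 497.0, 558.3, 552.3 and 428.9 FPKM in the embryos (log2 change 8.74 ± 0.24, SE, limma adjusted p = 1.82e-10). A further pair of loci named *id3* overlap each other on opposite strands of scaffold 98463 and had means of 139.7 and 74.5 FPKM in embryos. By contrast *id2* was at 38.0 to 78.3 FPKM in eggs and had a mean of 45.6 ± 3.78 FPKM (SD, n = 5) in embryos, and the groups overlapped (log2 change -0.09 ± 0.20, SE, limma adjusted p = 0.717). The Hes repressors, many of them targets of Notch, gave 13 tested loci of 22. Of the 13, 8 had no read in eggs and 11 were higher in embryos. *hes9.1* on scaffold 87017 led them with 162.2, 142.1, 160.8, 137.6 and 174.5 FPKM in embryos, while 3 reads were recovered over the eggs, a ratio of 568.6 (exact Poisson 95% interval 194.6 to 2757). The muscle determination genes *myf5* and *myod1* (3 loci) were higher in embryos at means between 8.25 and 18.4 FPKM, and both *mespa* loci, which act in somite formation, at 10.2 and 3.7 FPKM. Of these, 2 of the 3 muscle loci and both *mespa* loci had no read in eggs and passed the filter through the embryos alone.

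The forkhead, Sox, GATA, Klf and T-box list gave 13 loci higher in embryos and 2 higher in eggs of 16 tested, beside 31.6% and 25.2% of all gene models. Of 97 tested loci of longer span in this list, 58.8% were higher in embryos. Of the 16 compact loci, 8 had 3 reads or fewer in a stage. The endoderm determinants *sox17a* and *sox17b.1* were among the strongest. *sox17b.1* was at 422.6, 409.9, 390.6, 398.8 and 413.4 FPKM in embryos, with an SD of 12.6 FPKM, and at 0, 4.07, 0, 0.287 and 0.785 FPKM in eggs (395.9-fold, log2 change 7.96 ± 0.38, SE, limma adjusted p = 2.16e-08). *sox17a* was without a read in eggs and had a mean of 195.8 ± 44.2 FPKM (SD, n = 5) in embryos, from 134.3 to 256.6 FPKM. *sox15* was already abundant in eggs, at 66.5 to 82.8 FPKM in 4 eggs and 238.6 FPKM in egg 3, and its embryos at 161.9 to 347.1 FPKM overlapped egg 3 (limma adjusted p = 0.00468). The Klf zinc-finger factors went both ways. *klf4* was higher in embryos (2.08 to 54.2 FPKM), and so was *klf17* (log2 change 2.93). Both *klf2* loci were higher in eggs, the more abundant one at 83.1, 121.1, 65.2, 108.9 and 99.7 FPKM against 33.7 to 42.6 FPKM in 4 embryos and less in the other (log2 change -1.53 ± 0.24, SE, limma adjusted p = 2.49e-04). All 5 tested Fox loci were higher in embryos, at means between 4.04 and 16.3 FPKM. None of the 5 had a read in eggs, so they passed the filter through the embryos alone and had to be higher there.

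A pair of strongly rising loci lay outside the lists. *gs17*, first isolated as a gastrula-specific transcript, was at 0, 0.758, 0.979, 0 and 2.05 FPKM in eggs and at 442.1, 513.0, 605.0, 671.6 and 884.3 FPKM in embryos (823.6-fold, limma adjusted p = 2.11e-09). *has-rs*, a relative of the hyaluronan synthases, was at 0.194 to 0.556 FPKM in eggs and at 432.5, 308.1, 534.1, 416.7 and 118.3 FPKM in embryos (862.1-fold, limma adjusted p = 9.95e-09), with embryo 5 lowest.

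Some compact loci were neighbours. Members no more than 20000 bases apart formed 79 runs with 178 loci, of which 82 were tested, 40 were higher in embryos and 15 were higher in eggs, beside 38.0% and 23.1% of all tested compact loci and 31.6% and 25.2% of all gene models. At least 2 loci were higher in embryos in 12 runs, and at least 2 were higher in eggs in 4. No run held a locus higher in embryos beside a locus higher in eggs. Models that overlap on opposite strands were counted as neighbours, and it is not known whether their reads were kept apart. Such overlaps made up the *ubc* run on scaffold 42960 and the *id3* run on scaffold 98463 among the 12. Among the 4 they made up the run of *arfip2* and *timm10b* and the *aph1a* run. The runs named here were picked after their values were seen. A run of 30187 bases on scaffold 7555 held *ventx2.1*, *ventx1.1* and *ventx2.2*, at 148.0, 77.3 and 107.6 FPKM in embryos. A run of 25303 bases on scaffold 16863 held *ventx2.1*, *ventx1.1* and *ventx2.1* again, at 94.7, 122.3 and 72.4 FPKM. The Bix and Mix genes formed a run of 4 loci on scaffold 27161 (*bix4*, *bix2*, *bix2*, *mix1*) and a run of 3 on scaffold 102974 (*mix1*, *bix3*, *bix1.1*). *sox17a* and *sox17b.1* lay within 17428 bases of scaffold 230826. In the Nodal run on scaffold 128772 levels were unequal, with 21.4 FPKM for *nodal6*, 2.24 FPKM for *nodal5.2*, and 0.918 and 0.679 FPKM for the untested neighbours. Both Hes runs were graded likewise, from 155.4 FPKM for *hes9.1* to 0.338 FPKM for *hes3.3* on scaffold 87017. With short reads, close copies within a run may share reads, and their separate levels are uncertain to that extent.

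**Figure D4:**
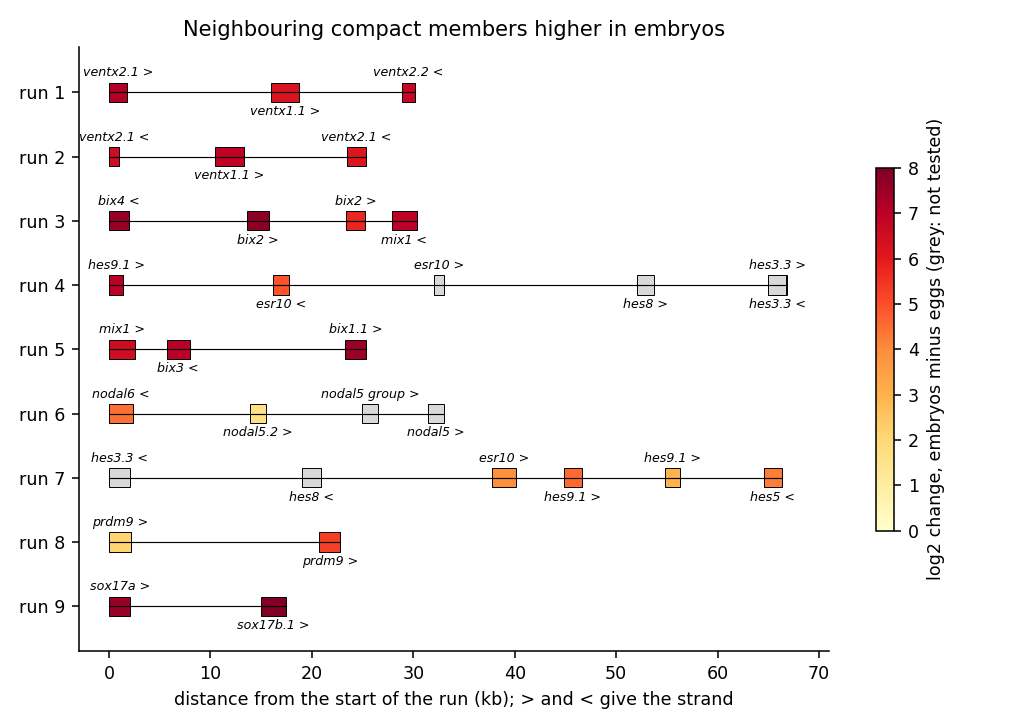
Runs of neighbouring compact loci in which at least 2 loci were higher in embryos and which exceed 10 kb, drawn to scale as distance from the start of the run in kb and coloured by log2 change (grey, not tested). The Ventx, Bix, Mix and Sox17 runs are dark throughout, while the Hes and Nodal runs (runs 4, 6 and 7) mix loci with a strong rise and loci too low to be tested.

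Compact loci of general cell function did not share a direction. Their counts stand beside 31.6% higher in embryos and 25.2% higher in eggs of all gene models. Ubiquitin and small GTPases gave 11 loci higher in embryos and 1 higher in eggs of 15 tested, and 5 of the 15 had 3 reads or fewer in a stage. Loci of longer span in this list gave 31.1% and 21.8% of 225 tested, near the shares of all gene models. The polyubiquitin gene *ubc* on scaffold 42960 went from 184.6, 139.1, 104.1, 116.8 and 130.6 FPKM in eggs to 1431, 742.5, 1120.0, 1293 and 1871 FPKM in embryos (9.56-fold, log2 change 3.21 ± 0.24, SE, limma adjusted p = 9.59e-07). It overlaps the model *fscn1/ubc* on the opposite strand, which went from 269.6 to 1066 FPKM. The 2 *rhob* loci, which encode a small GTPase, diverged: the longer one went from 115.7 to 179.3 FPKM (limma adjusted p = 0.00592) and the other from 164.2 to 104.0 FPKM (limma adjusted p = 0.01). Of 6 histone loci, 4 were higher in embryos and 1 was higher in eggs. *hist1h2am*, an H2A gene, was at 391.0, 427.5, 770.2, 488.0 and 435.1 FPKM in eggs and at 1191, 1191, 1107, 1161 and 1845 FPKM in embryos (2.59-fold, limma adjusted p = 2.10e-04). A shorter *h2afj* locus fell from a mean of 16.0 to 3.98 FPKM.

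Of 9 compact loci of the mitochondrial ribosome, 5 were higher in eggs and 2 higher in embryos, beside 25.2% and 31.6% of all gene models. The loci of longer span in the same list also gave more calls in eggs, 32 against 9 of 77 tested. *mrps18a* was at 44.5, 36.6, 61.7, 49.3 and 39.0 FPKM in eggs and at 11.4, 9.13, 20.9, 16.2 and 19.5 FPKM in embryos (log2 change -1.56 ± 0.24, SE, limma adjusted p = 2.11e-04). *mrpl41* passed in the other direction (224.8 to 309.2 FPKM, limma adjusted p = 0.0374), but the call was lost without any of 6 libraries, with log2 changes of 0.42 to 0.46. Respiration and mitochondrial import gave 5 loci higher in embryos and 4 higher in eggs of 12. The complex I assembly factor *ndufaf4* rose from 30.7 to 146.8 FPKM (limma adjusted p = 1.16e-04). *timm10b*, of the import machinery, went from 110.8 to 74.8 FPKM (limma adjusted p = 0.022, and 0.0588 without embryo 4). Cytosolic ribosomal proteins gave 3 higher in embryos and 1, *rpl11*, higher in eggs of 7, and 10 of these 17 loci were not tested. *rps2* was called higher in embryos (26.4 to 42.3 FPKM, limma adjusted p = 0.0364) but lost the call without any of 6 libraries, with a largest p of 0.0847.

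Small ribonucleoprotein genes gave 1 locus each way of 5. *snrpb*, an Sm core protein of the spliceosome, was at 183.8 to 226.2 FPKM in 4 eggs, at 450.1 FPKM in egg 3 and at 23.2 to 62.2 FPKM in embryos (6.51-fold higher in eggs, limma adjusted p = 2.63e-05). *nhp2l1* was called higher in embryos (95.2 to 132.5 FPKM, limma adjusted p = 0.0412) and lost the call in 8 of the 10 fits that left out a library, with a largest p of 0.0973. Tubulin, actin and related genes gave 2 higher in embryos and 3 higher in eggs of 6: *tuba3c* went from 214.3 to 104.2 FPKM, both *dynll1* loci, which encode a dynein light chain, fell in the single embryos (132.1 to 69.8 and 144.9 to 62.1 FPKM) but had means of 124.8 and 138.1 FPKM in the technical libraries, with which neither passed (log2 changes -0.14 and -0.09, limma adjusted p = 0.674 and 0.782), and *tmsb4x* (thymosin) rose from 11.1 to 59.1 FPKM. Heat shock genes gave 1 each way of 3. The single tested locus among often intronless receptors, the Wnt receptor *fzd8*, was higher in embryos (3.79 to 14.7 FPKM, limma adjusted p = 0.00362), with egg 3 at 13.5 FPKM inside the range of the embryos, and so was the single tested junction gene, *cldn4*, a claudin (0.182 to 24.7 FPKM). The 4 compact globin loci of the list were at 0 in every library, and no follicle cell gene of the list was compact. A further compact globin model, named *hbd/hbb2* among others, was outside the list and had a mean of 0 FPKM in eggs and in embryos.

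The name pattern for immediate response genes gave 7 loci higher in embryos and 6 higher in eggs of 15. Of the 6, *irf2bpl*, *ier3ip1* and *spryd4* are not immediate response genes, and the others were both *fos* loci and *jun*. The 7 loci higher in embryos were not sorted in the same way, so only the unsorted counts can be set side by side. *btg1*, an antiproliferative factor, rose from 179.0, 216.9, 202.1, 168.7 and 159.7 FPKM to 837.6, 724.3, 641.7, 837.6 and 709.1 FPKM (4.05-fold, limma adjusted p = 5.24e-07). Both *fos* loci, which encode a subunit of the transcription factor AP-1, fell. Maternal regulators gave 2 each way of 7. *ybx1* rose from 30.6 to 196.6 FPKM (6.43-fold, limma adjusted p = 1.23e-04), with every embryo above every egg. *zfp36l2.2*, which directs decay of AU-rich transcripts, fell from 221.4, 235.4, 429.3, 299.0 and 239.8 FPKM to 82.9, 97.6, 125.0, 60.7 and 42.7 FPKM (3.49-fold, limma adjusted p = 2.31e-04). *btg4*, which recruits the CCR4-NOT deadenylase to maternal messages, was named at 3 compact loci that differed: 222.3 to 336.9 FPKM (limma adjusted p = 0.0316), 94.7 to 63.7 FPKM (0.0706) and 42.9 to 11.3 FPKM (7.89e-04). The call at the most abundant of the 3 was lost in 8 of the 10 fits that left out a library, and egg 3, at 352.9 FPKM, lay within the range of the embryos.

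The 12 largest falls belonged to models of a mixed set of cellular genes with no list in common. The coding part ran from 153 bases at *kbtbd7* to 981 bases at *slc39a1*. Only *irf2bpl* and *kbtbd7* had a name on 1 gene model, while the names of the others were on 2 to 5. Each value is that of the model and may not hold for the whole gene. *wdr24*, a subunit of the GATOR2 complex in nutrient sensing, was at 37.6, 47.7, 14.2, 29.5 and 47.2 FPKM in eggs, at 1.01 FPKM in embryo 1 and at 0 in the other embryos. The 2 embryo reads give a ratio of 116.0 (exact Poisson 95% interval 32.1 to 958.0), and the log2 change was -4.86 ± 0.34 (SE, limma adjusted p = 5.35e-07). *tm9sf4*, a transmembrane protein, was at 29.4, 45.1, 7.45, 22.4 and 16.1 FPKM in eggs and at 0 in all 5 embryos, at least 77.6-fold higher in eggs, although 1 technical embryo library had 17.9 FPKM. *slc39a1*, a zinc transporter, gave the tightest values, with 49.6 to 66.5 FPKM in eggs and 5.46 to 6.37 FPKM in embryos (9.57-fold, log2 change -3.05 ± 0.14, SE, limma adjusted p = 1.29e-08). The others were *nars* (asparaginyl-tRNA synthetase, 69.2 to 3.88 FPKM), *irf2bpl* (27.8 to 1.03 FPKM), *ptrh2* (peptidyl-tRNA hydrolase, 60.2 to 4.07 FPKM), *kbtbd7* (a Kelch and BTB protein, 22.2 to 0.693 FPKM), *psmc4* (a proteasomal ATPase, 30.2 to 1.98 FPKM), *aph1a* (a γ-secretase subunit, 26.8 to 1.86 FPKM), *cluh* (21.5 to 1.65 FPKM), *agpat3* (an acyltransferase, log2 change -2.83) and *c3orf58* (37.8 to 5.32 FPKM).

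**Figure D5:**
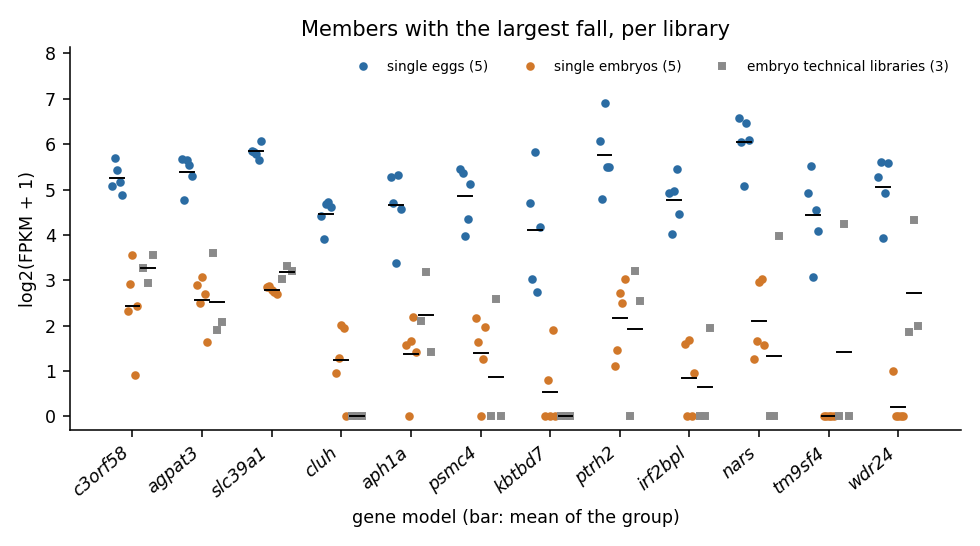
Level of the 12 compact loci with the largest fall, as log2(FPKM + 1) in each of 5 eggs (blue), 5 embryos (orange) and 3 technical embryo libraries (grey), with bars for the group means. Eggs lie above all single embryos at each locus, and *tm9sf4* and *wdr24* each have 1 technical library, at 17.9 and 19.1 FPKM, inside the range of the eggs.

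Several of these falls sit over another model. *wdr24*, *tm9sf4*, *aph1a* and *c3orf58* each overlap a model of their own name on the opposite strand. The *wdr24* partner went from 83.4 to 15.0 FPKM, the *tm9sf4* partner from 18.6 to 0.0142 FPKM, the *aph1a* partner from 16.6 to 2.02 FPKM, and the *c3orf58* partner, spanning 27898 bases, from 33.4 to 21.0 FPKM. Partners of other names were *tdrkh* over *slc39a1* (34.5 FPKM in eggs, log2 change -1.62), an unnamed model over *kbtbd7* (16.7 to 7.1 FPKM), and *vmp1* over *ptrh2*, which went the other way (6.61 to 10.5 FPKM, limma adjusted p = 0.0424). Over all compact loci, 78 tested loci had a tested partner of the same name on the opposite strand, in 81 pairings of a locus with a partner. Both models were higher in embryos in 13 pairings, both higher in eggs in 12, and the calls were opposite in 4. Where both models were compact, as at *aph1a*, the same pair was counted from each side. The counts of pairings are therefore not counts of distinct pairs. Among loci without any exon overlap, 39.1% of 435 tested were higher in embryos and 23.2% higher in eggs, near the shares of all compact loci. The role of the partners in single values was not tested.

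Same-named loci of different span could also be set side by side. For 100 names carried by exactly 1 compact and 1 longer model, both tested, 16 pairs were higher in embryos together, 16 were higher in eggs together, 14 were called in neither, and 6 were called in opposite directions. In the remaining pairs, the largest class, only the compact or only the longer model was called. The median change over the 100 pairs was 0.07 for the compact and -0.16 for the longer models.

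Single-exon loci were counted separately. Of 83 single-exon compact loci, 35 were tested, 10 (28.6%) were higher in embryos and 5 (14.3%) were higher in eggs, beside 31.6% and 25.2% of all gene models. Of the 35, 12 had 3 reads or fewer in a stage. The shares higher in embryos were 37.2% with 2 exons, 44.7% with 3, 34.0% with 4, 40.9% with 5 and 27.3% with more. Those higher in eggs were 22.7%, 21.3%, 30.0%, 27.3% and 36.4%. The median coding part of single-exon loci was 240 bases, against 453 bases in the other compact loci. Only 11 of the 83 bore the same name in both files, and 31 of the 35 tested shared their name with another gene model. The strongest single-exon rises were *celsr1*, which encodes a large atypical cadherin (0.354 to 56.6 FPKM), *slc16a3*, a monocarboxylate transporter (0.247 to 32.5 FPKM), and *srsf1*, a splicing factor (1.07 to 27.1 FPKM). The strongest fall was that of *irf2bpl*. These single-exon loci, apart from *irf2bpl*, were picked after their values were seen. Only *celsr1* of the 3 was named alike in both files.

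The most abundant compact loci were mainly of general function and shifted in both directions. In eggs they were *fthl17/mgc53066*, a ferritin gene (825.3 ± 182.1 FPKM, SD, n = 5), *med18*, a Mediator subunit (745.6 ± 144.0), *slc25a5*, the ADP/ATP carrier (542.9 ± 44.2), *hist1h2am* (502.3 ± 153.7) and *fam195b* (425.0 ± 70.4). Among neighbours in this order, only *med18* and *slc25a5* had ranges that did not overlap. In embryos they were *hist1h2am* (1299 ± 307.1), *ubc* (1291 ± 414.2), *fscn1/ubc* (1066 ± 365.7), *fthl17/mgc53066* (917.5 ± 156.1) and *gdf3* (824.3 ± 158.4), all neighbours in this order being within their spread. *gdf3* thus came from a single read in the eggs to a level like that of ferritin. *med18* fell from 686.5, 601.6, 948.8, 652.3 and 839.1 FPKM to 193.8, 173.2, 177.6, 155.7 and 141.0 FPKM (4.43-fold, limma adjusted p = 1.01e-06). *slc25a5* fell 1.64-fold (limma adjusted p = 0.0083). *fthl17/mgc53066* and *fam195b* did not pass the test, with log2 changes of 0.17 ± 0.19 (SE, limma adjusted p = 0.476) and -0.32 ± 0.17 (SE, limma adjusted p = 0.124).

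A large part of the compact loci was not measurable here. Of 585 that were not tested, 316 were at 0 in all 10 single libraries, 33 reached a mean of 1 FPKM in embryos and 23 in eggs. Testing covered 51.0% of compact loci and 61.4% of longer loci. Among tested loci, 68 compact ones (11.1%) were at 0 in all 5 eggs, against 2.07% of longer loci, and 11 were at 0 in all 5 embryos. These loci passed the filter through the other stage alone and had to differ. A level of 0 does not show absence, since it allows up to 3 reads over the 5 libraries of a stage.

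Values at the span limit itself were as follows. Just inside it, at 2997 bases each, were *tdgf1* (223.2 to 816.7 FPKM) and *rdh16/rdh9*, retinol dehydrogenase genes (49.2 to 23.7 FPKM, limma adjusted p = 0.0577, and 0.00109 without egg 2). Just outside it were *gbp7*, at 3004 bases and at 0 in every library, and *gpr12*, at 3007 bases and at 0.0833 FPKM in eggs and 0.176 FPKM in embryos.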

How the data were processed

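Total RNA of single eggs and embryos was depleted of ribosomal RNA, made into strand-specific libraries and sequenced as short single-end reads. Per the paper's methods and the submitters' processing notes, the authors used CASAVA 1.8.2, mapped reads to the JGI genome with gmap allowing a mismatch, and ran SAMtools 0.1.18, Cufflinks 2.1.1 and Cuffdiff. The authors called 1 transcript per locus from several annotations and expression data, and scaffold names and coordinates follow their gene model file (JGIv7b). The deposited FPKM values, 1 per gene model and library, were normalized by the authors for transcript length and library size. Merged FPKM profiles, 1 per stage, were used only as an alternative.

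Tables were joined by model identifier, because names differed between files. Compact loci were named models with a transcript of at least 500 bases and a span under 3000 bases. Members and gene lists were chosen with earlier results of these data known. FPKM was transformed as log2(FPKM + 1), so changes of low genes are understated. Models averaging 1 FPKM or more in the eggs and single embryos were tested with limma 3.58.1 (R 4.3.3, trended empirical Bayes, two-sided, Benjamini-Hochberg over all tested models). How the test behaves at loci with few or no reads in a stage was not tested. Whole reads were recovered from FPKM using an effective length with a mean fragment of 200 bases and an SD of 80 bases. Between 88.5 and 91.8% of low values came within 0.1 of a whole read. A count test was not used, since the steps depend on this assumed length. Folds against a stage without reads use a floor of 3 reads over its 5 libraries, and ratios from 1 to 3 reads carry exact Poisson intervals, both covering counting error only. P-values measure the spread between these libraries.

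Named genes were the 12 loci per direction with the largest change (adjusted p under 0.05, mean of at least 10 FPKM, no overlap between stages, 1 model per name), up to 4 per list with the highest mean, the 5 highest per stage, and 2 loci on each side of the span limit. Other loci were named from lists or runs after their values were seen. Lists followed name patterns. Alternatives changed the filter, pseudocount, scaling, trend, block, span, transcript length, names and libraries. Scaffold-level sequence was not analysed here.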

Additional observations from a re-analysis of the deposited data

Results flagged for a closer look

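In 14 of 133 groups of 5 libraries checked for named compact loci, the highest or lowest library stood apart from the other 4 by Dixon's criterion, which chance meets in about 1 of 20 groups. Egg 3 was the library in 8 of them, above the other eggs in 7. It had the fewest recovered reads of the eggs, 1420845, and the fewest compact loci at 1 FPKM or more, 395 against 443 to 486, and the part of either in these values was not tested. Its level was 770.2 FPKM for *hist1h2am* (others 391.0 to 488.0), 238.6 for *sox15* (66.5 to 82.8), 352.9 for *btg4* (179.0 to 204.4), 319.6 for *mrpl41* (189.5 to 210.8), 206.4 for *birc5.1* (68.7 to 88.4), 450.1 for *snrpb* (183.8 to 226.2), 13.5 for *fzd8* (0.734 to 2.99), and 169.9 for *hspa8* (206.2 to 216.1).

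Other eggs stood apart at single loci: egg 2 with 4.07 FPKM for *sox17b.1* (0 to 0.785 in the others), egg 5 with 80.5 FPKM for *ubc* on scaffold 167265 (25.3 to 41.1), and egg 1 with 26.8 FPKM for *dnajc30* (9.29 to 13.6). Among embryos, embryo 3 had 42.8 FPKM for *cldn4* (18.8 to 22.4), and embryo 5 had 1845 FPKM for *hist1h2am* (1107 to 1191) and 155.2 FPKM for *rps12* (100.8 to 111.0). Each of these values is a single library, and its cause was not tested.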

How the results depend on the processing

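The counts of compact loci higher in embryos (232) and in eggs (141) stayed within 1.5 times under every change of filter, pseudocount, scaling, trend, block or library that was run. Leaving out each library gave 211 to 230 and 127 to 149, a median of 0.20 to 0.29, and for single-exon loci 9 to 10 higher in embryos and 4 to 7 higher in eggs. Changing the members changed the counts by construction: 109 and 72 under 2000 bases (median 0.11), 450 and 389 under 5000 bases (0.10), 104 and 43 with a transcript of at least 1000 bases (0.82, single-exon 4 and 3), and 49 and 34 with a name on 1 gene model only (0.39, single-exon 0 and 2). The median moved to 0.31 at a mean of at least 5 FPKM (single-exon 5 and 1), to 0.32 with median ratio scaling and to 0.41 with a pseudocount of 0.1. It moved to 0.12 in the merged profiles and to 0.09 with the technical libraries in place of single embryos (single-exon higher in embryos 6). Single embryos, each set against the egg mean, gave medians of 0.272 to 0.372 (SD 0.046). That SD leaves out the spread between eggs and is not the SD of the median above. Chosen after seeing the data, members named alike in both files gave 0.31, members without exon overlap 0.30, and members without developmental regulators 0.03. Median ratio scaling moved the median of all gene models from 0.12 to 0.21 and the compact shares to 39.5% higher in embryos and 21.6% higher in eggs. Without a filter, 27.8% and 14.8% of 879 compact loci were called.

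Of 77 named loci, 57 kept their call in every alternative, 13 changed only with the technical libraries, and 7 changed without some single library. With the technical libraries the direction turned for *nhp2l1* (-0.15), *cycs* on scaffold 178713 (0.76) and *cycs* on scaffold 99185 (0.07), and the cause was not tested. Replicate numbers did not pair eggs and embryos: same-numbered deviations correlated between -0.017 and 0.074. With a replicate block, 233 compact loci were higher in embryos and 145 in eggs, with a median of 0.24, and single-exon loci gave 10 and 6. Depth limits these results, since the median tested compact locus had 8.0 to 13.1 reads in an egg and 9.5 to 29.1 in an embryo.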
